A study of Mus musculus with 6 samples.

Results

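The genes described here encode the LINC complex, which links the nuclear skeleton with the cytoskeleton, together with the lamins and emerin. The 10 genes were taken by symbol from the count files of all 6 libraries (Syne1 to Syne4, Sun1, Sun2, Lmna, Lmnb1, Lmnb2 and Emd), out of 23260 lines each treated as a gene. All 10 were listed once and passed the filter on low counts, as did 13610 genes in all. The members were chosen by symbol with the fold changes of these libraries known, Syne4 among them having been picked out by the study from its AMD3100 against control values, so the fold changes of the 10 genes are a description and support nothing by themselves.

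Embryonic submandibular glands (eSMGs) of embryonic day 14 ICR mouse embryos were kept in culture for 6 h. Control glands received no antagonist, and treated glands received AMD3100, which blocks the chemokine receptor CXCR4, at 50 µM. Each group had 3 tubes, numbered replicates 1 to 3, and a tube pooled up to 10 whole glands, with epithelium, mesenchyme, vessels, nerves and blood together. Libraries of the 3′ ends of mRNAs were sequenced, and totals lay between 9051595 and 14393031 counts per library. Of these counts, 16.2% (AMD3100 replicate 1) to 32.5% (AMD3100 replicate 2) lay on Rn45s, a ribosomal RNA precursor. The depth left for other genes was thus lower and differed between tubes. The study's methods describe its results in general as coming from independent experiments, but neither they nor the labels say so of these tubes, so the spread between them may be technical in part.

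In the nuclear envelope, nesprins (the products of Syne genes) sit in the outer membrane and reach into the perinuclear space with a short KASH domain. There they are held by the trimeric SUN proteins of the inner membrane, which bind the lamina on the nucleoplasmic side. Giant nesprin-1 and nesprin-2 bind actin, nesprin-3 binds plectin, and nesprin-4 binds the motor kinesin-1 and is known from secretory epithelia and cochlear hair cells. The lamina is a mesh of A-type lamins from Lmna, which rise in stiff tissues and with differentiation, and of B-type lamins from Lmnb1 and Lmnb2. Emerin, from Emd, is an inner membrane protein of the LEM domain family that binds lamins and the chromatin protein BAF. A deposited count covers all transcripts of a symbol, so that lamin A and lamin C, or long and short nesprins, are not separated.

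Promoter windows are shown for Syne4, whose groups did not overlap, and for Emd, which varied most with replicate number among the abundant members. Each runs from 250 bases before to 50 after the start that the RefSeq promoter table uses on GRCm38.p6, which for Emd lies a few bases downstream of the gene's first base, and capitals mark CCAAT (written ATTGG on the opposite strand) and GGGCGG, searched on both strands. The Syne4 window lies at chr7:30314566-30314865 and the Emd window at chrX:74254437-74254736, both on the plus strand.
Syne4: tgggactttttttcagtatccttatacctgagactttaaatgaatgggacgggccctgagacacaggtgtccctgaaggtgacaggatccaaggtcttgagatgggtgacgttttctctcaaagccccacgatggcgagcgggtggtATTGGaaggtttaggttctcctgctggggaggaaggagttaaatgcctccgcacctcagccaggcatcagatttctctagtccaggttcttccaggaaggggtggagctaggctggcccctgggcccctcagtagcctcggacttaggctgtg
Emd: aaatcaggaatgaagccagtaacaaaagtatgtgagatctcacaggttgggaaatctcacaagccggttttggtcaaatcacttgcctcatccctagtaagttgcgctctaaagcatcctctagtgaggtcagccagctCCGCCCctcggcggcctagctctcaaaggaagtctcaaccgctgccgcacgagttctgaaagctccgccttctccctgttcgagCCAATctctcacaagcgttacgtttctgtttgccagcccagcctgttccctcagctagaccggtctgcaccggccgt
Both windows held CCAAT, which 37.4% of all 32851 windows of this length hold. The Emd window held GGGCGG as well, which 35.7% of windows hold, and the Syne4 window did not. TATAAA, found in 13.6% of windows, was in neither of them. These matches are letters in a window and say nothing of a factor bound there.

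The libraries of replicate 3 stood apart from the others in both groups, for 6 of the 10 genes as for a large part of all genes tested. In a principal component analysis of log2 CPM (counts scaled to a common library size), 38.2% of the variance lay on the first component, which placed control replicate 3 at 84.8 and AMD3100 replicate 3 at 80.8, with the other libraries between -78.7 and -17.4. The second component (26.3%) set control replicate 1, at 82.3, apart from AMD3100 replicate 2, at -87.6. Both libraries of replicate 3 lay outside the range of the 4 others, above or below, for 44.2% of the genes tested (23.1% above and 21.1% below). The 9 skeletal muscle markers, among them Myog, Des and Tnnt1, summed to 1289 CPM in control replicate 3 and 1691 CPM in AMD3100 replicate 3, against 115 to 217 CPM in the 4 others. Myog, a transcription factor of muscle precursors, was the most abundant of them over the 6 libraries, and none was at 0 in every library. The 10 mesenchyme markers, led by Col3a1, summed to 2144 and 1851 CPM in these libraries and to between 4386 and 4463 CPM in the others. Most of this distance lay in the collagens Col1a1, Col1a2 and Col3a1, without which the sums were 1021 and 811 CPM against 1107 to 1189 CPM. Of the 10, 5 were below the 4 other libraries in both and 1, Lum, was above them. The 6 macrophage markers, led by C1qa, summed to 214 and 170 CPM against 60.7 to 87.4 CPM. Of the 6, 3 were above the 4 other libraries in both libraries of replicate 3, and 1, Adgre1, was below them. Without C1qa the sums were 91.7 and 74.5 CPM against 46.7 to 68.9 CPM, and Csf1r, the receptor that macrophages depend on, was at 26.8 CPM in both libraries of replicate 3, within the range of the others (26.5 to 43.2 CPM). In such bulk tubes, more cells of a type and more RNA per cell cannot be told apart.

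As whole glands, the tubes held RNA of epithelium beside that of other tissues. All 12 epithelial markers (Cdh1, Epcam, Esrp1, Sox10, Cldn4 and keratins) passed the filter, and none was at 0 in every library. Their sum was 2027, 2013 and 1408 CPM in control and 2466, 2100 and 3412 CPM in AMD3100-treated eSMGs, with the keratin Krt15 the most abundant. The groups did not overlap in this sum, with little distance between control replicate 1 and AMD3100 replicate 2. Without Krt15, the sums overlapped, at 986, 1002 and 520 CPM in control and 1099, 1085 and 940 CPM in AMD3100-treated eSMGs.

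**Figure D1:**
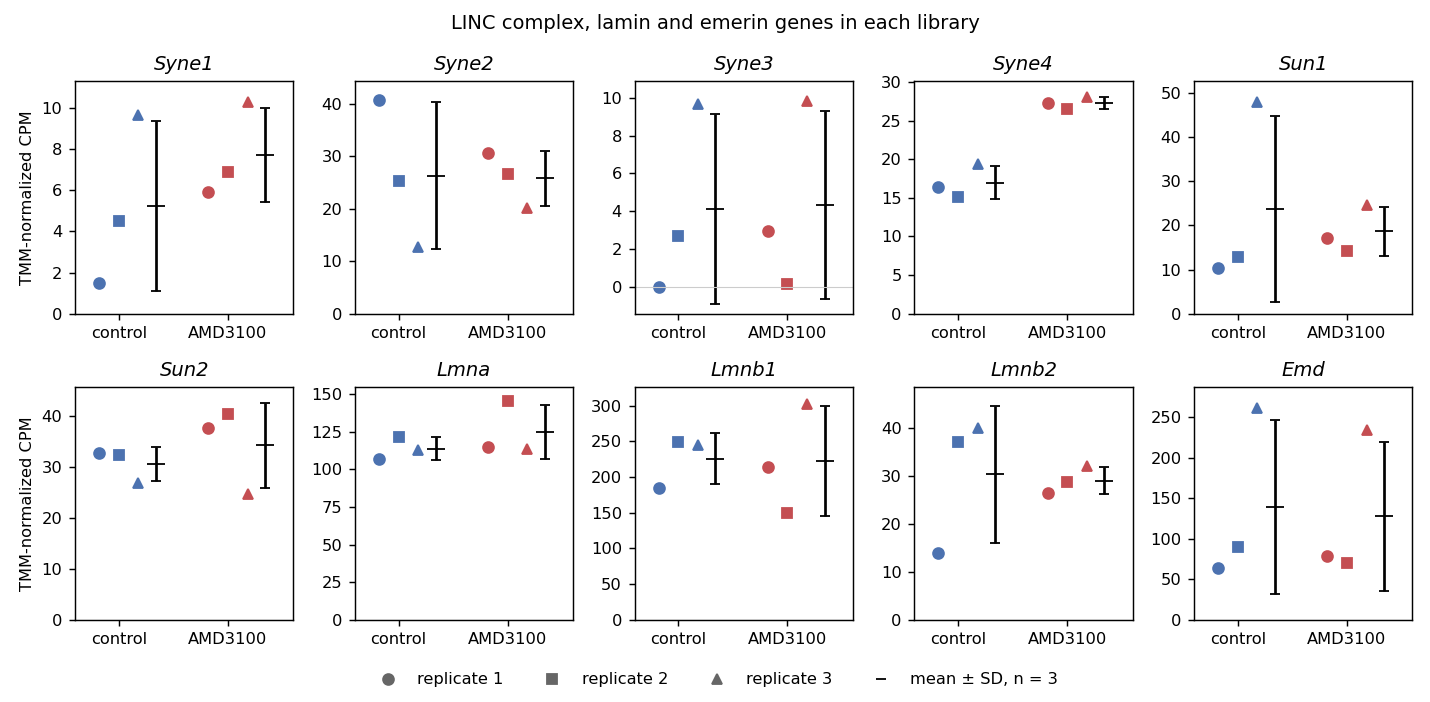
Expression of each of the 10 genes as TMM-normalized CPM (vertical axes, from 0 or below) in 3 control (blue) and 3 AMD3100 (red) libraries, with symbols for the replicate number and the mean ± SD (n = 3) in black. Only for Syne4 do all red points lie above all blue points, and for Emd, Sun1, Syne1 and Syne3 the triangles of replicate 3 lie above the other symbols.

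The plot of expression by library shows that 1 of the 10 genes, Syne4, had groups that did not overlap. Groups did not overlap for 7.44% of the genes tested, with the treated libraries higher for 3.28% and lower for 4.17%. In edgeR's quasi-likelihood test with Benjamini-Hochberg adjustment, 0 of the 10 genes and 0 of the 13610 genes tested (0%) had an adjusted p-value under 0.05, while 228 genes (1.68%) had an unadjusted p-value under 0.05. By a fold change over 1.5 with an unadjusted p-value under 0.05, 0 of the 10 genes were called, beside a background of 1.68%. With replicate number as a block, 1 was called, Syne4, beside a background of 4.39%, and 3 genes of the whole table (0.022%), none of them among the 10, had an adjusted p-value under 0.05. The labels do not say that same-numbered tubes belong together, so the block and the pairs rest on an assumption. The median log2 fold change of the 10 was 0.02, as was that of all genes tested, with 5 of the 10 higher, beside 52.2% of all genes. Since the choice of the 10 used this contrast, nothing is read from these counts.

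Among the nesprins, Syne4 (chromosome 7, from 30314816 to 30319045 on GRCm38.p6) had 187, 208 and 194 counts in control and 474, 287 and 228 counts in AMD3100-treated eSMGs. On the CPM scale these were 16.4, 15.2 and 19.3 in control and 27.3, 26.5 and 28.0 in AMD3100-treated eSMGs. The treated tubes lay close together, with a coefficient of variation of 2.84% against 12.7% in control, and the highest control library was replicate 3. The fitted fold change was 1.61, or 0.68 ± 0.30 on the log2 scale (estimate ± standard error). Its unadjusted p was 0.0516 in edgeR's quasi-likelihood test, close to the threshold, for a gene picked out from this same contrast. Within pairs of the same replicate number, the log2 ratio was 0.74, 0.80 and 0.53, and in replicates 1 and 2 alone the fitted log2 fold change was 0.76. With the replicate block it was 0.69, with an adjusted p of 0.703 in edgeR's quasi-likelihood test. No other gene of RefSeq overlaps Syne4, and of 11 reads simulated at its 3′ end none aligned to a second place in the genome.

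Syne4 was also set against the epithelial markers. Among the treated libraries, and between control replicates 1 and 2, Syne4 and the epithelial sum ranked alike, while control replicate 3 had the lowest sum of the 6 libraries and the highest Syne4 in control. Without Krt15 this order did not hold. Of the treated libraries, AMD3100 replicate 3 then had the lowest sum and the highest Syne4, and control replicates 1 and 2 ranked in opposite order. Per 1000 CPM of epithelial markers, Syne4 stood at 8.08, 7.52 and 13.7 CPM in control and 11.1, 12.6 and 8.21 CPM in AMD3100-treated eSMGs, so that the groups overlapped. Per 100 CPM of Cdh1, which encodes E-cadherin, it stood at 4.86, 5.02 and 9.19 CPM in control and 7.94, 6.72 and 5.52 CPM in AMD3100-treated eSMGs, again with overlap. Per 1000 CPM of epithelial markers without Krt15, the groups overlapped too. Syne4 then stood at 16.6, 15.1 and 37.2 CPM in control and 24.8, 24.4 and 29.8 CPM in AMD3100-treated eSMGs. In each of these ratios, Syne4 was higher with AMD3100 in the pairs of replicates 1 and 2 and lower in that of replicate 3. The part of the epithelial markers in the Syne4 values was not tested. Of the 12 epithelial markers, Cdh1, Cldn4 and Krt7 also had groups that did not overlap, higher with AMD3100, beside 3.28% of all genes, and Krt7, at 2.14 times its control level, was called, beside 0.397% of all genes called higher. With the replicate block Krt15 was called higher as well, with a log2 fold change of 0.62, beside 1.49% of all genes. The list had a median log2 fold change of 0.40, and of 0.19 with replicates 1 and 2 only. All 9 erythroid markers, led by Hba-a1, were lower with AMD3100 (median log2 fold change -0.35), beside 52.2% of all genes higher. They are not 9 separate measures. Hbb-b1 and Hbb-bs had nearly the same counts in each library (16056 and 16156 in control replicate 1). So did Hbb-b2 and Hbb-bt (10507 and 10583 in control replicate 1). Of 5 endothelial markers, led by Kdr, 4 were lower and 1 higher (median -0.42). No gene of these 2 lists was called. With the replicate block, Myog (-1.16) and Myod1 (-2.05) of the skeletal muscle list and Twist1 (-0.97) of the mesenchyme list were called lower. In either direction the block called 4.39% of all genes.

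The genes whose log2 CPM over the 6 libraries was most like that of Syne4 were Ezh2, Smim1, Mapk8ip1, Rbm25 and Bmp1, out of 8245 genes with a mean of at least 10 CPM. Pearson's r was 0.98 for Ezh2, the methyltransferase of PRC2, and between 0.97 and 0.98 for the other 4, and 40 genes had an r over 0.9. These correlations are over 6 libraries and describe them only, and all 5 genes share with Syne4 that their groups did not overlap. Mapk8ip1, a scaffold protein of JNK signalling, stood at 24.2, 22.3 and 24.9 CPM in control and 41.1, 41.8 and 39.9 CPM in AMD3100-treated eSMGs.

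The other nesprins varied between tubes more than between groups. Syne2 was at 40.8, 25.3 and 12.8 CPM in control and 30.6, 26.6 and 20.1 CPM in AMD3100-treated eSMGs. Its log2 fold change was -0.03 (standard error 0.44), and replicate 3 was lowest in both groups. Syne1 had 17, 62 and 97 counts in control and 103, 75 and 84 counts in AMD3100-treated eSMGs, or 1.49, 4.52 and 9.67 CPM and 5.93, 6.91 and 10.3 CPM. It was higher with AMD3100 in all 3 pairs, by a log2 ratio of 2.0, 0.61 and 0.09, but the groups overlapped and the fitted log2 fold change of 0.56 had a standard error of 0.71. Leaving out 1 library gave Syne1 estimates from 0.12 (without control replicate 1) to 1.36 (without control replicate 3). Syne1, Syne4 and Lmna were the 3 of the 10 genes that were higher in all 3 pairs, a pattern that 15.7% of all genes tested had. None of the 10 was lower in all 3 pairs, as 15% of all genes were.

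Syne3 was close to the detection limit in 2 libraries, with 0, 37 and 97 counts in control and 51, 2 and 80 counts in AMD3100-treated eSMGs. A library with 3 counts, the floor used here, would stand at between 0.173 and 0.368 CPM, counting error only. The libraries of replicate 3 stood at 9.67 and 9.82 CPM, and no other library was above 2.94 CPM. The fitted value was 0.06 ± 1.56 on the log2 scale, so that a difference between the groups could not be told from the spread between tubes. It moved to -1.40 without AMD3100 replicate 3 and to 1.68 without control replicate 3.

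Sun1 and Sun2, the widely expressed SUN proteins, differed in how they varied. Sun1 was at 10.2, 12.7 and 48.0 CPM in control and 17.1, 14.1 and 24.7 CPM in AMD3100-treated eSMGs. Control replicate 3 alone was far above the rest, and the groups overlapped. The log2 fold change of Sun1 was -0.34 (standard error 0.59) with all libraries, 0.70 without control replicate 3 and 0.44 with replicates 1 and 2 only, and the sign also turned with limma-voom after quantile normalization, at 0.02. Sun2 was at 32.7, 32.5 and 26.8 CPM in control and 37.7, 40.5 and 24.8 CPM in AMD3100-treated eSMGs, with replicate 3 lowest in both groups. The log2 fold change of Sun2 was 0.16 (standard error 0.31). The ratio of Sun1 to Sun2 CPM, read for its change between libraries, was 0.313, 0.392 and 1.79 in control and 0.454, 0.349 and 0.995 in AMD3100-treated eSMGs. It was thus higher in both libraries of replicate 3 than in the 4 others. For Sun1, 18.2% of the simulated 3′ reads also matched another place.

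Lmna varied least between libraries of the 10 genes. It was at 107, 122 and 113 CPM in control and 115, 145 and 114 CPM in AMD3100-treated eSMGs, and the highest library was 1.36 times the lowest. Its log2 fold change was 0.13 (standard error 0.27), and it lay between 0.01 and 0.18 with each library left out in turn. The groups overlapped, and AMD3100 replicate 2 alone was above the rest.

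The B-type lamins did not separate the groups either. Lmnb1 was at 184, 249 and 245 CPM in control and 214, 150 and 303 CPM in AMD3100-treated eSMGs, which gave -0.02 ± 0.33 on the log2 scale. Both the lowest and the highest library of Lmnb1 were treated ones. Lmnb2 was at 13.9, 37.2 and 40.1 CPM in control and 26.4, 28.9 and 32.1 CPM in AMD3100-treated eSMGs, which gave -0.06 ± 0.42. Control replicate 1 was low for Lmnb2, as it was for Syne1 and Syne3, and 18.2% of simulated 3′ reads of Lmnb2 matched another place.
The ratio of Lmna to Lmnb1 CPM, read only for its change between libraries, was 0.579, 0.490 and 0.460 in control and 0.536, 0.968 and 0.375 in AMD3100-treated eSMGs. Both the highest and the lowest ratio were in treated tubes, with replicate 2 high and replicate 3 low. The 8 markers of proliferating cells, led by Cdk1, summed to 608 ± 82.3 CPM in control and 562 ± 89.2 CPM in AMD3100-treated eSMGs (SD, n = 3 each). Without Cdk1 the order turned, at 412 ± 22.1 CPM in control and 436 ± 88.2 CPM with AMD3100, and 4 of the 8 were higher and 4 lower.

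**Figure D2:**
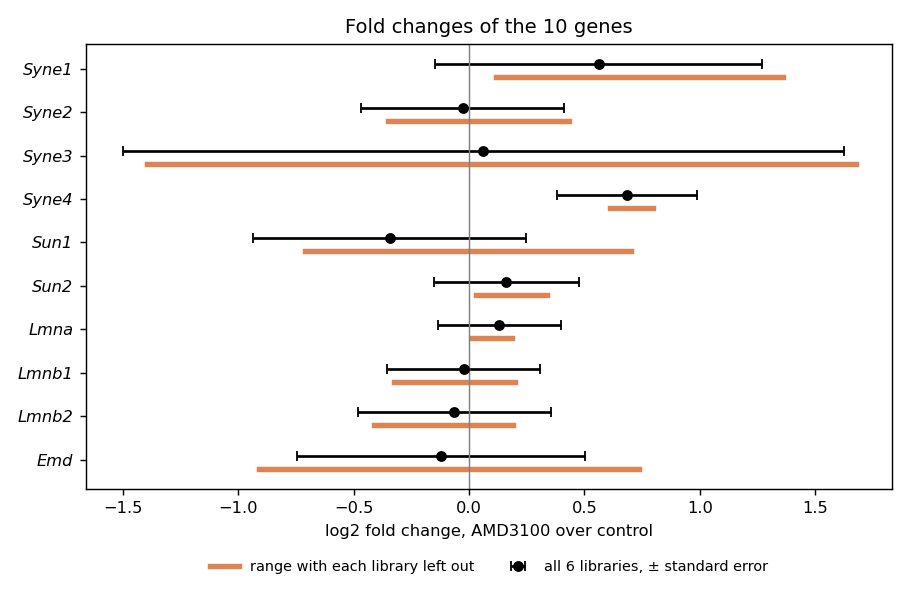
Log2 fold change of AMD3100 over control (horizontal axis) for each gene, with the edgeR estimate from all 6 libraries ± its standard error in black and the range of estimates with each library left out in turn in orange. The orange range of Syne4 runs from 0.61 to 0.80, those of Syne1, Sun2 and Lmna also stay above 0, and those of the other 6 genes reach both sides of 0.

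Emd (chromosome X, from 74254674 to 74261563) varied by replicate number and not by group. It had 64.5, 90.0 and 262 CPM in control and 78.9, 70.5 and 234 CPM in AMD3100-treated eSMGs. The libraries of replicate 3 were the 2 highest, with a mean 3.26 times that of the 4 others. The log2 ratios within the pairs were 0.29, -0.35 and -0.16, and the fitted estimate was -0.12 ± 0.62 on the log2 scale. Leaving out 1 library of replicate 3 moved it to 0.74 (without control replicate 3) or -0.91 (without AMD3100 replicate 3), as the plot of fold changes shows, and with replicates 1 and 2 only it was -0.05. A RefSeq pseudogene, Gm14686, lies over the last 300 bases of Emd, so that reads there cannot be assigned with certainty, although none of the 11 simulated reads matched a second place.

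**Figure D3:**
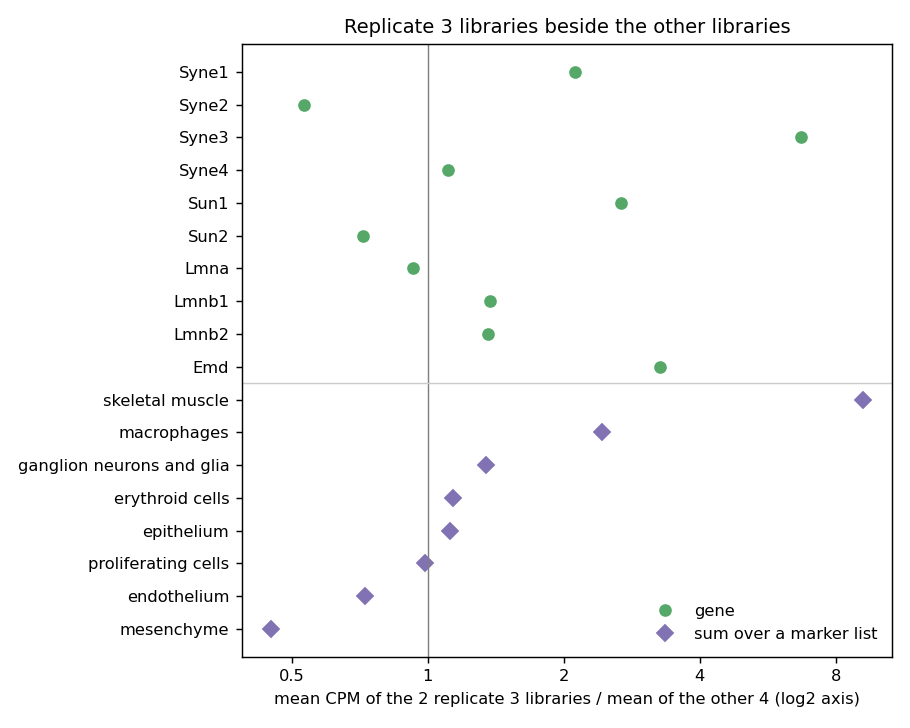
Mean CPM of both replicate 3 libraries divided by the mean of the other 4 libraries (horizontal log2 axis) for the 10 genes (circles) and for sums over marker lists of cell types (diamonds). Skeletal muscle markers lie farthest right at 9.18 and mesenchyme markers farthest left at 0.451, with Syne3 at 6.70 and Emd at 3.26 among the genes.

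The plot of replicate 3 beside the other libraries sets the split by replicate number in the 10 genes next to that in the marker lists. Both libraries of replicate 3 lay above the 4 others for Syne1, Syne3, Sun1 and Emd and below them for Syne2 and Sun2, or 6 of 10 genes beside 44.2% of all genes tested. The ratio of the mean of replicate 3 to that of the others was 2.12 for Syne1, 2.68 for Sun1, 0.533 for Syne2 and 0.720 for Sun2. Syne4, Lmna, Lmnb1 and Lmnb2 had values of replicate 3 within the range of the others in at least 1 library. The sum of the skeletal muscle markers was 9.18 times higher in these libraries, that of the macrophage markers 2.44 times (1.36 without C1qa), and that of the mesenchyme markers 0.451 times as high (0.795 without the 3 collagens). Without Myog, the muscle sum was still 7.25 times higher. The part of these cell types in the levels of Emd, Sun1, Syne1 and Syne3 was not tested.

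The same split is seen in how the members varied with each other over the 6 libraries. Sun1 and Emd had a Pearson correlation of 0.91, and Syne2 had correlations of -0.94 with Sun1 and -0.89 with Emd. Syne4 had no correlation above 0.61 in either direction with another member, and that was with Syne1. These values are over 6 libraries that fall apart by replicate number, share depth and composition within a library, and describe these tubes only.

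**Figure D4:**
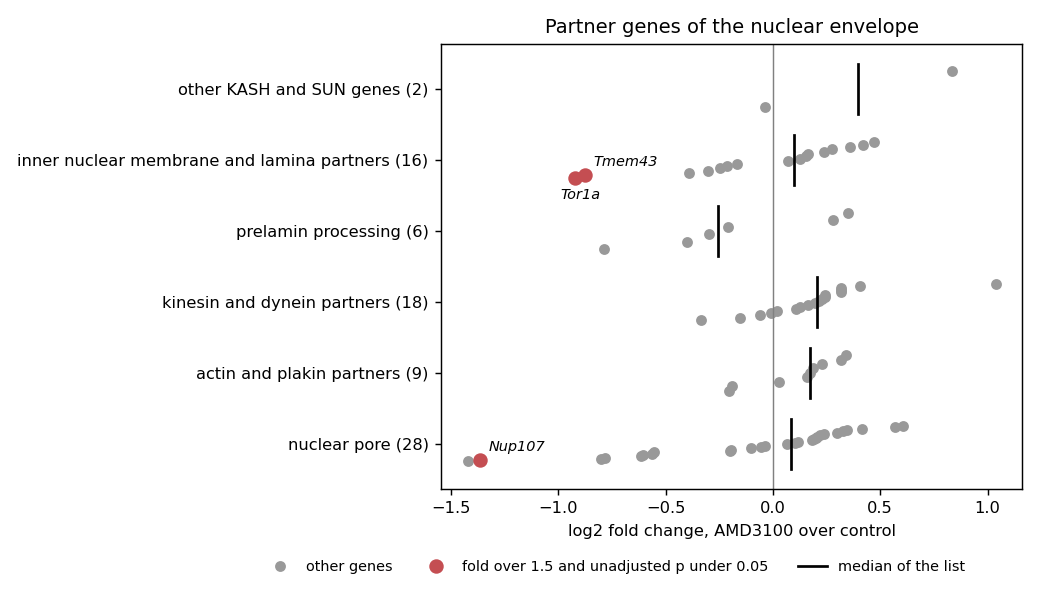
Log2 fold change of AMD3100 over control (horizontal axis) of each partner gene tested, by list with the number tested in brackets, with the median of a list as a black bar and genes called (more than 1.5 times different, p under 0.05 before adjustment) in red. Nup107, Tor1a and Tmem43 are red, all lower, and every other gene is grey.

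The wider set of partner genes comprised 82 genes listed in the files, of which 79 were tested. By a fold change over 1.5 and an unadjusted p-value under 0.05 (edgeR), 3 were lower and 0 higher with AMD3100, or 3.80% called beside 1.68% of all genes in either direction, 1.28% lower and 0.397% higher. None had an adjusted p-value under 0.05, as for the whole table. Their median log2 fold change was 0.13, with 48 higher and 31 lower, against 0.02 over all genes tested. With the replicate block, 6 were lower and 1 higher, or 8.86% beside 4.39% of all genes. The counts rest on few genes, and no difference from the background was tested.

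Tor1a encodes torsin-1A, an ATPase between the nuclear membranes that is known to act on LINC complexes. It was at 25.9, 18.7 and 16.3 CPM in control and 13.1, 9.86 and 9.09 CPM in AMD3100-treated eSMGs, with no overlap. On the log2 scale it differed by -0.92 ± 0.37 (edgeR, unadjusted p = 0.0357, adjusted p = 1.0), and the call was lost without control replicate 1 (-0.71) or replicate 2 (-0.98), AMD3100 replicate 2 (-0.86) or replicate 3 (-0.83). Its related ATPase Tor1b was above control in all treated libraries, at 69.3, 69.6 and 49.8 CPM in control and 92.2, 97.3 and 72.1 CPM with AMD3100. Tor1b had the highest log2 fold change of the inner membrane and lamina partners, 0.47 (standard error 0.29), but did not pass. Tor1aip1, which encodes the torsin activator LAP1, was at 45.3 ± 4.11 CPM in control and 36.7 ± 1.46 CPM with AMD3100 (SD, n = 3 each) and did not pass either.

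Tmem43 encodes the inner membrane protein LUMA, a binding partner of emerin and lamins. It was at 18.6, 26.2 and 27.7 CPM in control and 15.8, 9.31 and 14.4 CPM in AMD3100-treated eSMGs, with no overlap. The difference was -0.88 ± 0.37 on the log2 scale (edgeR, unadjusted p = 0.0411, adjusted p = 1.0), and it kept its call with control replicate 1 left out but with no other library left out. The estimate lay between -1.04 and -0.68 with each library left out in turn. The 16 inner membrane and lamina partners had a median log2 fold change of 0.10. With each library left out, the median took both signs, from -0.08 (without control replicate 3) to 0.19 (without control replicate 2). Tor1a and Tmem43 were the 2 called genes among the 16, beside 1.68% of all genes. The others included Lbr, the lamin B receptor, at 50.9 ± 14.4 CPM in control and 65.1 ± 0.778 CPM with AMD3100, and Tmpo, which encodes LAP2, at 126 ± 25.8 and 106 ± 12.9 CPM (SD, n = 3 each).

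Among 28 nuclear pore genes, 1 was called, beside 1.68% of all genes. This was Nup107, a scaffold protein of the pore's Y complex. With the replicate block, Sec13 (-0.62, adjusted p = 0.596) and Nup88 (-0.74, adjusted p = 0.703) were called lower as well by the unadjusted rule in edgeR. That made 3 of the 28, beside 4.39% of all genes. Nup107 was at 14.7, 15.0 and 24.9 CPM in control and 6.05, 8.02 and 7.12 CPM in AMD3100-treated eSMGs, so that the highest treated library was well below the lowest control library. The difference was -1.37 ± 0.41 on the log2 scale (edgeR, unadjusted p = 0.00847, adjusted p = 1.0). Leaving out each library in turn gave -1.51 to -1.07, and it was called each time. With replicates 1 and 2 only it was -1.09 and was not called. The lowest log2 fold change of the list was that of Nup54, at -1.42 with a standard error of 1.36, and the highest was that of Nup160, at 0.61 (standard error 0.74). Most simulated 3′ reads of Nup54, 90.9%, matched another place. The median of the list was 0.08, with 15 genes higher and 13 lower.

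Of the 18 kinesin and dynein partners, which include the kinesin-1 chains that nesprin-4 binds, 0 were called (1.68% of all genes). Of these 18, 14 were higher and 4 lower, beside 52.2% of all genes higher, and the median log2 fold change was 0.21 beside 0.02 over all genes, a difference that was not tested. With each library left out, this median lay between 0.05 (without AMD3100 replicate 3) and 0.26 (without AMD3100 replicate 2). With replicates 1 and 2 only it was 0.12. Klc3, a kinesin light chain, had the highest log2 fold change, 1.04 ± 0.55, and was not called. It was at 2.71, 6.70 and 6.58 CPM in control and 6.74, 14.6 and 11.7 CPM in AMD3100-treated eSMGs, so that AMD3100 replicate 1 was barely above control replicate 2. With the replicate block it was called (log2 fold change 1.08, edgeR unadjusted p = 0.0384, adjusted p = 0.725). Kif5b, the widely expressed kinesin-1 heavy chain, was at 225 ± 25.2 CPM in control and 280 ± 67.7 CPM with AMD3100 (SD, n = 3 each), and 72.7% of its simulated 3′ reads matched another place. Nde1, a dynein regulator, had the lowest log2 fold change of the list, -0.34 (standard error 0.41).

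The remaining partner lists had 0 genes called. Of 6 genes for prelamin processing, Fntb, a subunit of farnesyltransferase, had the highest log2 fold change, 0.35, and Narf, which binds prelamin A, the lowest, -0.79 (standard error 0.40), called with the replicate block (edgeR unadjusted p = 0.0431, adjusted p = 0.731). The 9 actin and plakin partners had log2 fold changes between -0.21 for Actn1 and 0.34 for Fhod1, and Fhod1, a formin that binds nesprin-2, stood at 11.8 and 12.6 CPM in the libraries of replicate 3 and at most 2.42 CPM in the others. Plec, encoding the nesprin-3 partner plectin, was at 46.1 ± 9.77 CPM in control and 57.4 ± 15.0 CPM with AMD3100 (SD, n = 3 each). The other KASH and SUN genes, known mainly from germ cells and lymphocytes, were scarce, and Sun3 and Sun5 had 0 counts in every library. Ccdc155, which encodes the meiotic protein KASH5, had counts of 30, 0 and 9 in control libraries and 0 in all treated ones, and did not pass the filter. Lrmp had a log2 fold change of -0.04 and Spag4 of 0.84, with a standard error of 1.33 and 1.62.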

How the data were processed

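The authors deposited raw read counts per gene symbol, without normalization, from 3′ mRNA libraries read as 50-base single reads. Bowtie2, edgeR and the build mm10 are named in the submitters' processing notes, and the annotation used for counting is not given in the sources used here. Of 23282 lines, 22 that repeated an earlier symbol and its counts were left out. The 10 genes and all lists were chosen with earlier results of these data known, and the ratios of Syne4 to epithelial markers, and the marker sums without their leading genes, after their values were seen.

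Counts were compared with edgeR 4.0.16 in R 4.3.3 (TMM normalization, filterByExpr, glmQLFit and glmQLFTest, Benjamini-Hochberg adjustment over 13610 genes), with condition as the only term. CPM are TMM-normalized, and standard errors come from the coefficient and its F. Genes named are the 10, the 5 most like Syne4, the most abundant marker of each cell type described, and from each partner list the called genes and those with the highest and lowest log2 fold change. Others, such as Tor1aip1, Lbr, Tmpo, Kif5b, Plec, Csf1r, Adgre1, Lum and the block calls Sec13, Nup88, Myod1 and Twist1, were named after their values were seen. Alternatives were DESeq2 1.42.0, limma-voom (limma 3.58.1) after quantile normalization, upper quartile normalization, no filter, at least 10 counts per library, replicate block, replicates 1 and 2 only, Rn45s left out, and each library left out.

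Replicate numbers come from the labels. Deviations from the group means of same-numbered libraries correlated at 0.185, 0.171 and 0.584. Control replicate 2 correlated with AMD3100 replicate 1 at 0.198, and control replicate 1 with AMD3100 replicate 2 at 0.146. Deviations within a group cancel out, so these values set replicate 3 apart but cannot show how tubes of replicates 1 and 2 pair. The pairs and the replicate block follow the numbers in the labels, and the pairing of replicates 1 and 2 is an assumption. Reads of 50 bases from the last 300 bases of each gene in GENCODE vM1 (NCBIM37) were aligned with minimap2 2.31-r1302 to find shared reads, with Syne3 not matched by symbol. The fits were tested on simulated data, which had less spread between replicates than these libraries (common biological coefficient of variation 0.579). Intervals from a floor of 3 counts cover counting error only.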

Additional observations from a re-analysis of the deposited data

How the results depend on the processing

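Over 14 alternatives, the log2 fold change of Syne4 was above 0 in all and lay between 0.61 and 0.80, and those of Syne1, Sun2 and Lmna were also above 0 in all, while those of the 6 other genes took both signs. A fold change over 1.5 with an unadjusted p-value under 0.05 was met by 598 genes with the replicate block and 613 with replicates 1 and 2 only, against 228, and by 163 to 547 genes with each library left out, the highest without control replicate 3 (547) and AMD3100 replicate 3 (451). The cause was not tested. An adjusted p-value under 0.05 was met by 5 genes with DESeq2 and 3 with the replicate block, against 0. Of the 10 genes, 1 (Syne4) passed the first rule with DESeq2 and 1 with the replicate block, against 0. With DESeq2 its unadjusted p was 0.0497, against 0.0516 in the main edgeR fit, so that call turned on a small difference. With each library left out, the median log2 fold change of the 10 genes lay between -0.0343 (without control replicate 1) and 0.45 (without control replicate 3). Of the partner genes, 7 passed with the replicate block against 3, and 1 to 4 with each library left out, the lowest without AMD3100 replicate 2. The replicate block changed no other call of the 10 genes. Nup107 passed in 13 of 14 alternatives, Tor1a in 8 and Tmem43 in 7. Syne3 had no value with at least 10 counts in every library. For Syne3, with 0 and 2 counts in 2 libraries, depth limits the value of those libraries, counting error only.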
